A study of Mus musculus with 18 samples.

Results

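The extracellular matrix and integrin genes described here are those that the deposited table assigns to the KEGG pathway of ECM-receptor interaction (mmu04512) and that had at least 10 counts in 3 or more of 18 libraries. Of the 57180 genes in the table, 87 belong to the pathway and 45 passed the count minimum. They are 9 of 18 collagens, 6 of 10 laminins, 11 of 19 integrins, 9 of 25 other matrix proteins and 10 of 15 other receptors. Reln had too few counts for the test, which left 44 members among 14263 genes tested. The pathway genes below the minimum include Tnc and Thbs1, which fibroblasts can make, and Vtn. Their highest counts in any library were 1, 2 and 2.

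RNA came from L929 cells, an established mouse fibroblast line labelled WT, in 6 groups of 3 cultures each. Mock cells, labelled DMSO, received no AOA, aspartate or HT-DNA. AOA (aminooxyacetic acid, which blocks aminotransferases) was given at 0.5 mM from 1 h before any DNA, alone or with 20 mM aspartate (AOA+Asp). HT-DNA (herring testis DNA, which cGAS senses in the cytosol) was transfected with Lipofectamine 2000 at 0.5 µg/ml for 6 h, alone (HT-DNA), with AOA (HT-DNA+AOA), or with AOA and aspartate (HT-DNA+AOA+Asp). All of this is 1 cell line at 1 time, there was no group with aspartate alone, and the sources used here do not say whether Mock cells received the transfection reagent, so the DNA and the transfection cannot be told apart. The design asks how the aminotransferase inhibitor changes the cells with and without DNA, and which of its changes aspartate undoes.

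The extracellular matrix that fibroblasts secrete is a network of fibrillar collagens, sheet-forming type IV collagen, laminins, proteoglycans and adhesive glycoproteins such as fibronectin. Collagens are trimers of alpha chains, laminins are trimers of an alpha, a beta and a gamma chain, and integrins are pairs of an alpha and a beta subunit that bind these proteins at the cell surface and link them to actin through talin, kindlin and paxillin. Syndecans, dystroglycan, CD44, CD36 and CD47 are receptors for matrix proteins or their sugars that do not belong to the integrin family.

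The libraries held 17901546 to 24057284 estimated counts (median 20385793), and CPM here are counts per library size, scaled by TMM, edgeR's trimmed mean of M values. The labelled cell type was checked against its markers. Vim (2300 to 2970 CPM), S100a4, Col1a1, Col1a2, Pdgfrb and Pdgfra were expressed, while Thy1, Fap, Dcn and Lum did not exceed 0.169 CPM, so 6 of 10 fibroblast markers reached 1 CPM. Col1a1 and Col1a2 are also members, so the marker counts and the member counts share their values. None of 5 epithelial or 4 endothelial markers reached 1 CPM, Ptprc and Adgre1 were at 0 with Cd68 at 110 to 155 CPM among 5 macrophage markers, and of 4 smooth muscle markers only Des did (13.1 to 20.5 CPM). The summed fibroblast markers ran from 5270 to 5730 CPM in Mock, 5530 to 6110 with AOA and 6310 to 6870 with HT-DNA. With HT-DNA+AOA they ran from 4710 to 6370 CPM. Vim and S100a4 made up most of the sum, which hides markers that fell. Pdgfrb had means of 225 CPM in Mock, 169 with AOA and 119 with HT-DNA. Of 6 markers tested, 1 was higher and 3 lower with AOA (45.7% of all genes called), and 2 and 3 with HT-DNA (48.2%). For HT-DNA+AOA against HT-DNA, 0 were higher and 4 lower (45.4%). The part of the markers in the results was not tested. In RNA from whole cultures, fewer expressing cells and less RNA per cell cannot be told apart. The HT-DNA+AOA libraries differed most among themselves, with a chi-square per degree of freedom of 67 between replicates 1 and 3, against at most 13.3 within the other groups.

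Differences among libraries ran along with the base composition and length of transcripts. Over 13909 genes, the difference of HT-DNA+AOA replicate 3 from replicate 1 had a Spearman rho of 0.481 with the GC content of the longest transcript and -0.397 with exon length, and the change from Mock to HT-DNA had 0.354 and -0.35. For AOA against Mock the rho with GC was 0.0386. Members had a median GC content of 54.8% and exon length of 6587.5 bases, against 49.3% and 4016 bases for all genes. Because of this, the tests were repeated after each library's trends with GC content and length were removed, a correction chosen after seeing the data.

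Per kilobase of exon and averaged over all libraries, Spp1 (osteopontin, a secreted glycoprotein that binds integrins) had by far the highest level of the members, 1030 CPM per kilobase, followed by Cd36 at 134. The most abundant integrin subunit was Itgb5 (78.3 CPM per kilobase), the most abundant collagen chain Col4a1 (73.7) and the most abundant laminin chain Lamc1 (55.4). Fn1, the fibronectin gene that is a main product of most fibroblasts, stood at only 3.34 CPM per kilobase, and Col1a1 and Col1a2, the chains of type I collagen, at 21.4 and 8.4. Itgb1, the usual partner of the alpha 3, alpha 5 and alpha 6 subunits, stood at 7.06, below Itga5 (28.7) and Itga6 (20.1), and how the counting treated reads shared with other loci is not given in the sources used here. Exon length here is the union of all exons of a gene. It was 12426 bases for Col1a2 against 5348 for its longest transcript, and 6563 against 5930 for Col1a1. For Itga6 it was 9025 against 4310, and for Itga5 4933 against 4415. The distance and order of such genes therefore depend on the length used. Summed over members, the matrix and receptor genes took 7460 ± 25.2 CPM in Mock, 8540 ± 140 with AOA and 7360 ± 226 with AOA+Asp. The sums were 7710 ± 120 with HT-DNA, 8080 ± 35.1 with HT-DNA+AOA and 7310 ± 49.3 with HT-DNA+AOA+Asp (SD, n = 3). Much of each rise with AOA came from Spp1. Its mean was 1320 CPM in Mock, 2110 with AOA, 1510 with HT-DNA and 2140 with HT-DNA+AOA. With AOA, summed laminins rose from 837 to 1000 CPM without HT-DNA and from 734 to 857 with it. Integrins rose from 931 to 1090 and from 875 to 977. Collagens went from 2200 to 2160 and from 2170 to 1870, and other receptors from 1640 to 1650 and from 1840 to 1750.

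**Figure D1:**
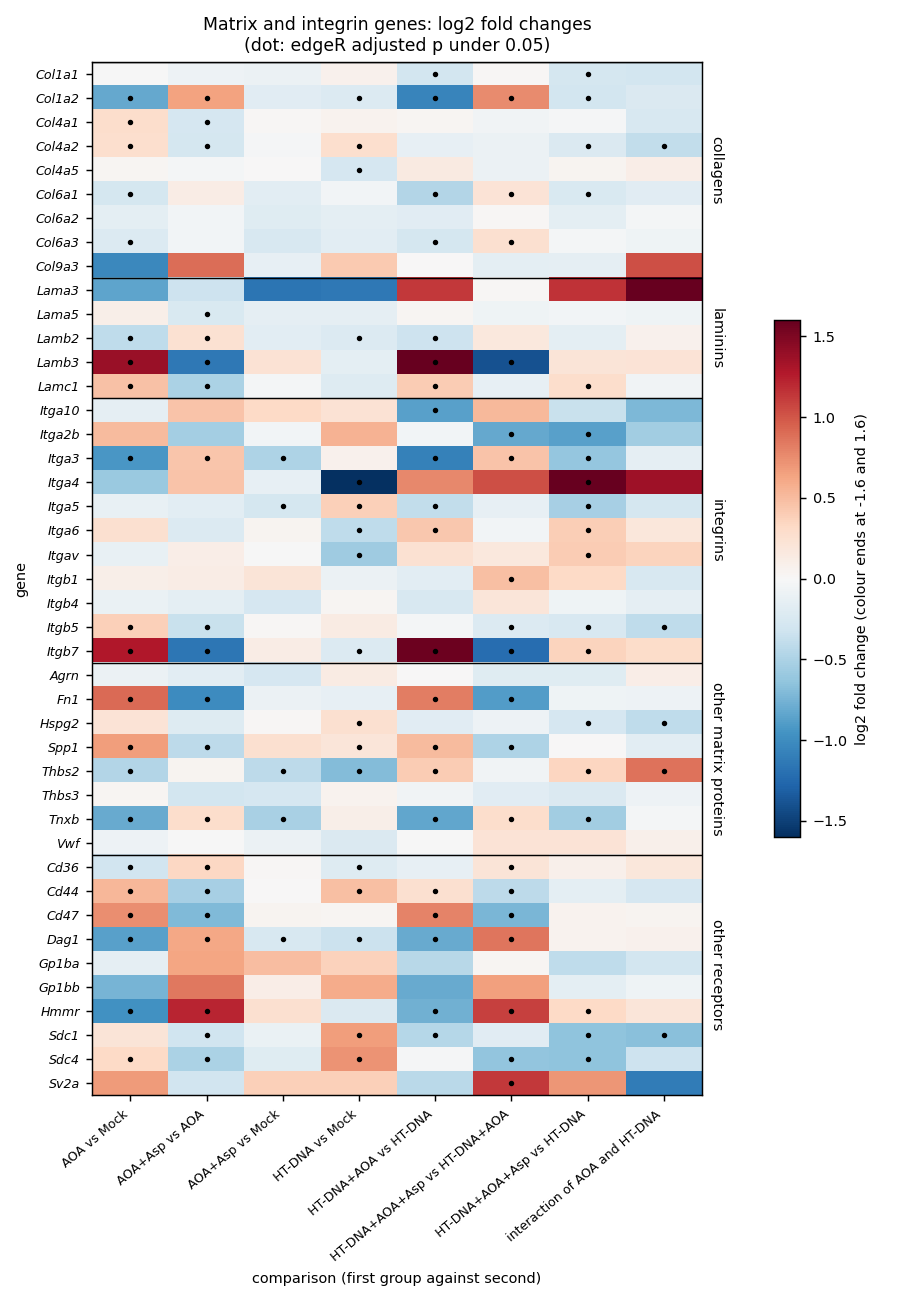
Log2 fold change of each member tested, other than 1 not reported here (vertical, by family), in each of the 7 comparisons and the interaction (horizontal), with colours from blue (lower) to red (higher) and a dot where edgeR's adjusted p was under 0.05. Fn1, Itgb7, Cd47 and Lamb3 are red for AOA against Mock and HT-DNA+AOA against HT-DNA and blue where aspartate was added to AOA, and Col1a2, Itga3, Tnxb, Dag1 and Hmmr show the opposite. Itga4 and Lama3 run past the ends of the colour scale in some comparisons.

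Promoter windows (250 bases before to 50 after the start of transcription, from RefSeq on GRCm38.p6) were found for 36 of the 45 members. Those shown here belong to the collagen chains whose levels are compared within a trimer below and to the integrin subunit with the largest rise. Capitals mark matches, on either strand, to the CCAAT box (CCAAT) or the GC box (GGGCGG). Col1a2 lies at chr6:4505368-4505667 (plus strand), Col4a1 at chr8:11312777-11313076 (minus strand), Col4a2 at chr8:11312555-11312854 (plus strand) and Itgb7 at chr15:102231886-102232185 (minus strand), and each is printed 5′ to 3′ on the strand of its gene.
Col1a2: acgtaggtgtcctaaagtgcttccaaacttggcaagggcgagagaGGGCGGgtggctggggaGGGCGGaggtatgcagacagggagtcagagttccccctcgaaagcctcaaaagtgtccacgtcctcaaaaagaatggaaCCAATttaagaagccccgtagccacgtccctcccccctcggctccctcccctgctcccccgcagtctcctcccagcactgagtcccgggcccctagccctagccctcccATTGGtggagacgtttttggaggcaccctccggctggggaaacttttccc
Col4a1: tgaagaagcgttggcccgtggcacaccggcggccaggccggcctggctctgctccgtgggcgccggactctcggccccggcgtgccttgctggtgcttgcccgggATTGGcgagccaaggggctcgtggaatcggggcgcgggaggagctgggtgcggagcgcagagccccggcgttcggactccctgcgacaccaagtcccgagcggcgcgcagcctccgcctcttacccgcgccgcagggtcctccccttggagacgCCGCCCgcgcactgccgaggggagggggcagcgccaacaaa
Col4a2: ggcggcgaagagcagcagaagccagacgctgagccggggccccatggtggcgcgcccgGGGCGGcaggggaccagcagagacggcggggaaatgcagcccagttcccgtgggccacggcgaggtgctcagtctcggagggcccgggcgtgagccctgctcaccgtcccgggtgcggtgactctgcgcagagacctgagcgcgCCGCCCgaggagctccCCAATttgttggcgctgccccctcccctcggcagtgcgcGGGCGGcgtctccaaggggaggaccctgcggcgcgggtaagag
Itgb7: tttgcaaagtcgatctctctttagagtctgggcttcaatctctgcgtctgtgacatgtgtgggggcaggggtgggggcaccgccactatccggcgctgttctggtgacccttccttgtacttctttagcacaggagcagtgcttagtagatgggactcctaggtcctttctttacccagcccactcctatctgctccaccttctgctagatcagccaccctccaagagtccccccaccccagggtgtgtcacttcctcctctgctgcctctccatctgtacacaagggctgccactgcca
Col4a1 and Col4a2 start 21 bases apart on opposite strands, and their windows share 78 bases. Over the 36 windows the GC box was found in 25 (69.4%, against 35.9% of 27025 genes), the CCAAT box in 11 (30.6% against 37.9%), TATAAA in 2 (5.56% against 14.2%, Spp1 and Thbs2), the AP-1 motif TGANTCA in 3 (8.33% against 7.93%, Col6a1, Gp1bb and Tnxb) and the amino acid response motif TGATGNAA in 0 (0% against 4.06%). The median GC content of the windows was 60.2% for members and 52.7% for all genes, and the motif shares were not adjusted for it. The Itgb7 window holds none of the 5 motifs. A match is a description of these letters and not evidence of a bound factor.

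AOA alone raised fibronectin, the integrin subunit Itgb7, the laminin chains Lamc1 and Lamb3, osteopontin, Cd47 and Cd44, and lowered Col1a2, Itga3, Tnxb, Dag1 and Hmmr. By the quasi-likelihood test of edgeR, with p-values adjusted by Benjamini-Hochberg and called under 0.05, 21 of 44 members were called against Mock, 11 higher and 10 lower. Over all 14263 genes 45.7% were called, so the members' count is near the background. Their median log2 fold change was -0.09, and that of all genes 0.02. With library totals in place of TMM, where the median of all genes was -0.12, the split of members was 10 higher and 14 lower. After the GC and length correction it was 16 and 9. Of the 21 calls, 19 held in every planned setting and after the correction. By family, 5 of 9 collagens, 3 of 6 laminins, 3 of 11 integrins, 4 of 8 other matrix proteins and 6 of 10 other receptors were called.

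Fn1 (ENSMUSG00000026193), which encodes fibronectin, the glycoprotein that integrins assemble into fibrils, was at 33.9, 31.4 and 32.1 CPM in Mock and at 67.2, 60.2 and 54.7 CPM with AOA. With AOA+Asp it was at 29.9, 30.6 and 30.5 CPM. All AOA libraries were above all Mock and AOA+Asp libraries, and the last group sat slightly below Mock. AOA raised Fn1 1.87-fold (log2 0.90 ± 0.08, SE; adjusted p = 8.51e-08, edgeR) and aspartate lowered it to 0.5 of its AOA level (adjusted p = 3.26e-08, edgeR). For AOA+Asp against Mock the log2 difference was -0.10 (95% interval -0.28 to 0.08). With HT-DNA, Fn1 was at 31.4, 29.4 and 28.3 CPM, with HT-DNA+AOA at 58.5, 51.2 and 48.2, and with HT-DNA+AOA+Asp at 29, 28.2 and 27.8. The HT-DNA+AOA libraries were again apart from both neighbouring groups, with a log2 rise of 0.82 and a log2 fall of -0.89.

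Itgb7 (ENSMUSG00000001281) encodes integrin beta 7, which pairs with alpha 4 or alpha E and is best known on lymphocytes that home to the gut. It was at 59.8, 55.6 and 62.6 CPM in Mock, 148, 144 and 141 with AOA, and 59.6, 66 and 67.5 with AOA+Asp. With HT-DNA it was at 50.9, 50 and 51.8 CPM, with HT-DNA+AOA at 140, 146 and 168, and with HT-DNA+AOA+Asp at 67, 68.4 and 60. Both groups with AOA and no aspartate were above every other library. The rise was 2.42-fold without HT-DNA (log2 1.28 ± 0.08, SE; adjusted p = 4.13e-10, edgeR) and 2.97-fold with it (log2 1.57, adjusted p = 1.87e-11, edgeR), and the interaction, the AOA effect with HT-DNA minus that without, was 0.29 and was not called (adjusted p = 0.0723, edgeR), but was 0.56 (adjusted p = 8.93e-05) after the GC and length correction. Its fall with HT-DNA alone (-0.22, adjusted p = 0.0262) was lost when any 1 of Mock replicates 1 and 3 or the 3 HT-DNA libraries was left out (0.0517 to 0.104), and was -0.53 (adjusted p = 7.04e-07, edgeR) after the correction. Its partner Itga4 was under 1 CPM in every library, at 0.291 to 0.558 CPM with AOA. Per kilobase the mean level of Itgb7 over all libraries was 32.2 CPM.

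Cd47, the integrin-associated protein that also signals to phagocytes, was at 104, 101 and 114 CPM in Mock and 177, 178 and 179 with AOA. It was at 114, 109 and 105 CPM with AOA+Asp. AOA raised it 1.68-fold (adjusted p = 1.45e-08, edgeR), and the Mock and AOA+Asp libraries overlapped. With HT-DNA it was at 109, 113 and 105 CPM, with HT-DNA+AOA at 189, 184 and 190, and with HT-DNA+AOA+Asp at 112, 113 and 115, so the rise was present with DNA too (log2 0.79) and the interaction was 0.04 (adjusted p = 0.752, edgeR). HT-DNA itself left it at a log2 difference of 0.03 from Mock, which was 0.42 (adjusted p = 0.00269, edgeR) after the GC and length correction.

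**Figure D2:**
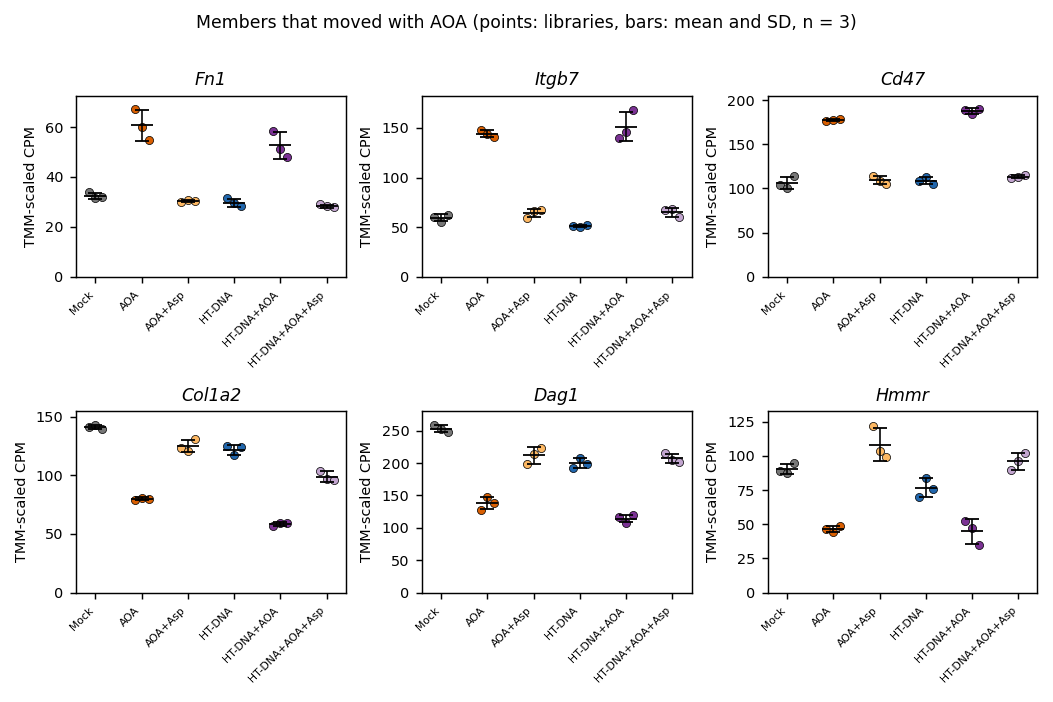
CPM of 6 members in each library (points) of the 6 groups, with the mean and SD (n = 3) as bars and every vertical axis starting at 0. Fn1, Itgb7 and Cd47 are high, and Col1a2, Dag1 and Hmmr low, in the AOA and HT-DNA+AOA groups, with AOA libraries of Itgb7 at 141 to 148 CPM and Mock libraries at 55.6 to 62.6.

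Among the collagens, the type I chains parted. Col1a2 (ENSMUSG00000029661), which encodes the alpha 2 chain, was at 141, 143 and 140 CPM in Mock, 79, 81.1 and 80.2 with AOA, and 123, 121 and 131 with AOA+Asp. It was at 125, 117 and 124 CPM with HT-DNA, 56.7, 59.7 and 59.6 with HT-DNA+AOA, and 104, 96.8 and 96.2 with HT-DNA+AOA+Asp. AOA libraries were below all others of the same DNA status, and those with aspartate lay between. The log2 change with AOA was -0.82 ± 0.06 without HT-DNA (adjusted p = 3.57e-09, edgeR) and -1.05 ± 0.06 with it (adjusted p = 9.01e-11, edgeR). Col1a1, which encodes the alpha 1 chain of the same trimer, was at 143, 157 and 144 CPM in Mock and 147, 152 and 141 with AOA, a log2 difference of -0.01 (95% interval -0.17 to 0.14), which the GC and length correction turned to 0.17 (adjusted p = 0.00323, edgeR). With HT-DNA+AOA against HT-DNA its log2 change was -0.30 (adjusted p = 0.00288, edgeR), and this was 0.04 (adjusted p = 0.465) after the GC and length correction.

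Within a library the count of Col1a2 per count of Col1a1 does not depend on the scaling of libraries, but it was not corrected for GC content or length. It was 0.958 ± 0.0397 in Mock, 0.547 ± 0.0184 with AOA, 0.907 with AOA+Asp, 0.783 with HT-DNA, 0.466 with HT-DNA+AOA and 0.775 with HT-DNA+AOA+Asp (SD, n = 3). AOA libraries (0.534 to 0.568) did not overlap those of Mock (0.913 to 0.988), and the two-sided exact permutation p was 0.1, the smallest that 3 against 3 allows, or 0.19 after adjustment over the 55 ratios tested. Of these 55 tests, 29 showed no overlap between the groups. The basement membrane collagen chains Col4a1 and Col4a2, whose promoters face each other, kept a ratio of Col4a2 to Col4a1 of 0.598 in Mock and 0.589 with AOA, which overlapped. With HT-DNA the ratio was 0.704, 0.656 and 0.708 in the 3 libraries, above the Mock libraries at 0.594 to 0.602 (exact permutation p = 0.1).

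**Figure D3:**
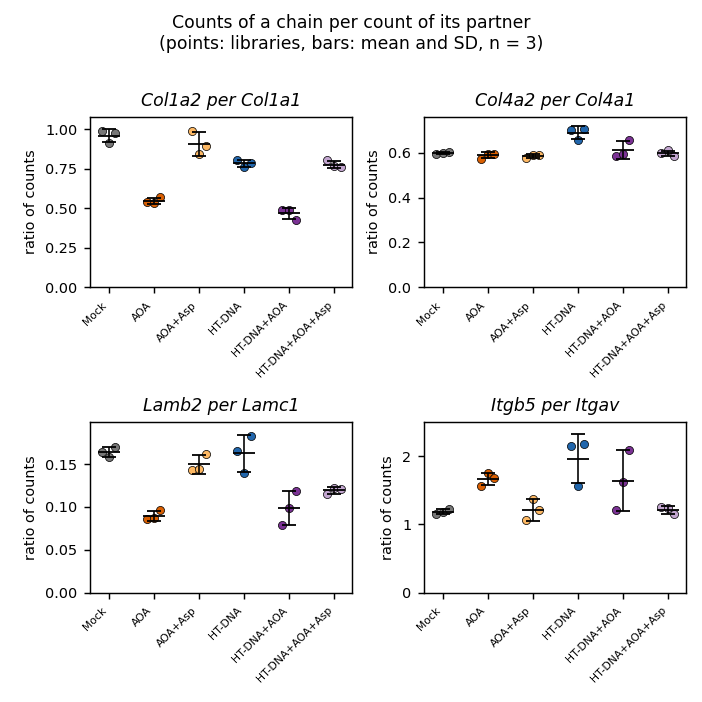
Count of one chain per count of its partner in each library (points), with the mean and SD (n = 3) as bars, by group, for pairs that form a trimer or a dimer. Col1a2 per Col1a1 is 0.534 to 0.568 in the AOA libraries and 0.913 to 0.988 in Mock. The mean of Lamb2 per Lamc1 is lowest in the AOA and HT-DNA+AOA groups, but HT-DNA+AOA replicate 3 (0.119) lies among the HT-DNA+AOA+Asp libraries (0.115 to 0.122).

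Col4a1 was at 525, 525 and 504 CPM in Mock and 641, 621 and 634 with AOA, a log2 rise of 0.29 (adjusted p = 0.00117, edgeR), and was at 473, 528 and 569 with AOA+Asp. Col4a2 was at 312, 314 and 303 CPM in Mock, 368, 371 and 379 with AOA, and 273, 312 and 337 with AOA+Asp, and its rise of 0.27 was not called with library totals (0.13, adjusted p = 0.128). Neither chain overlapped between Mock and AOA, while both overlapped between Mock and AOA+Asp. With HT-DNA, Col4a1 was at 542, 548 and 533 CPM and Col4a2 at 382, 360 and 377, and with HT-DNA+AOA they were at 537, 543 and 577 and at 315, 324 and 381. HT-DNA+AOA+Asp libraries held 542, 528 and 526 CPM of Col4a1 and 324, 322 and 310 of Col4a2. In cells that also had DNA, the log2 difference with AOA was 0.03 for Col4a1 and -0.13 for Col4a2 as fitted, and after the GC and length correction it was 0.33 (adjusted p = 2.04e-06) and 0.23 (adjusted p = 0.000615, edgeR). The interaction was -0.26 for Col4a1 (adjusted p = 0.0592) and -0.40 for Col4a2 (adjusted p = 0.0208, edgeR). The latter was -0.23 (adjusted p = 0.0284) after the correction, and lost its call without HT-DNA replicate 1 (adjusted p = 0.0518) and without HT-DNA+AOA replicate 2 (adjusted p = 0.0563).

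Of the type VI collagen chains, which form beaded microfibrils, Col6a1 fell with AOA by a log2 of -0.28 (adjusted p = 0.0015, edgeR) and with AOA on top of HT-DNA by -0.47 (adjusted p = 8.64e-06). Col6a3, the most abundant collagen by CPM, was at 736, 764 and 685 in Mock, 658, 642 and 579 with AOA, 557, 629 and 645 with AOA+Asp, 634, 708 and 597 with HT-DNA, 575, 532 and 483 with HT-DNA+AOA, and 638, 650 and 614 with HT-DNA+AOA+Asp. Its fall with AOA was small beside the spread (log2 -0.22, adjusted p = 0.0376, edgeR), and the call was lost without Mock replicate 1 (adjusted p = 0.0918), Mock replicate 2 (0.132), AOA replicate 2 (0.0615) or AOA replicate 3 (0.16), and after the GC and length correction (log2 -0.04, adjusted p = 0.485). Col6a2 was not called by edgeR in any of the 7 comparisons or the interaction.

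Laminin chains parted as well. Lamc1 (ENSMUSG00000026478), the gamma 1 chain of most laminins, was at 443, 439 and 398 CPM in Mock, 648, 594 and 534 with AOA, and 407, 414 and 429 with AOA+Asp. It was at 339, 409 and 364 CPM with HT-DNA, 571, 477 and 430 with HT-DNA+AOA, and 468, 446 and 440 with HT-DNA+AOA+Asp. AOA libraries were apart from Mock, and HT-DNA+AOA libraries apart from HT-DNA, although replicates within HT-DNA+AOA spread widely. The log2 rises were 0.47 (adjusted p = 0.00049, edgeR) and 0.41 (adjusted p = 0.00153, edgeR). Lamb2, the beta 2 chain that joins the same trimers, moved the other way, from 72.8, 69.6 and 67.8 CPM in Mock to 55.3, 51.9 and 51.6 with AOA (log2 -0.41, adjusted p = 0.000513, edgeR). It was at 58, 59.7 and 69.7 CPM with AOA+Asp, 56.1, 57.4 and 66.7 with HT-DNA, 44.8, 47.1 and 51.2 with HT-DNA+AOA, and 54, 54.2 and 53.1 with HT-DNA+AOA+Asp. Its fall with AOA on top of HT-DNA (-0.33, adjusted p = 0.00258) was 0.02 (adjusted p = 0.845) after the GC and length correction.

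The ratio of Lamb2 to Lamc1 counts was 0.164 ± 0.00576 in Mock and 0.0898 ± 0.006 with AOA, and the libraries did not overlap (exact permutation p = 0.1). With HT-DNA+AOA it was 0.0785, 0.0986 and 0.119, which overlapped HT-DNA+AOA+Asp at 0.115 to 0.122 (exact permutation p = 0.2). The ratio was not corrected for GC content, which was 58.8% for Lamb2 and 53% for Lamc1. Lama5, the alpha 5 chain, was at 299, 300 and 294 CPM in Mock, 326, 322 and 309 with AOA, 233, 271 and 304 with AOA+Asp, 265, 260 and 287 with HT-DNA, 267, 263 and 300 with HT-DNA+AOA, and 270, 267 and 252 with HT-DNA+AOA+Asp. It was not called against Mock with AOA (log2 0.10, 95% interval -0.07 to 0.27), but was after the GC and length correction (0.32, adjusted p = 0.000102, edgeR). Lamb3, a beta chain of a laminin typical of epithelia, was low throughout but rose, from 0.677, 0.36 and 0.475 CPM in Mock to 1.66, 1.33 and 0.988 with AOA (log2 1.38 ± 0.29, SE; adjusted p = 0.000856, edgeR), and was at 0.746, 0.587 and 0.463 with AOA+Asp. It was at 0.455, 0.474 and 0.437 CPM with HT-DNA, 1.15, 1.49 and 1.55 with HT-DNA+AOA and 0.435, 0.577 and 0.568 with HT-DNA+AOA+Asp. All 6 libraries with AOA and no aspartate were above the other 12. Lamb1, the beta 1 chain, carries no pathway in the table and is therefore no member. It was looked up after the values of its partners were seen, and rose from a mean of 424 to 575 CPM with AOA (log2 0.44, adjusted p = 9.26e-05, edgeR).

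Among the integrins, AOA changed 3 of 11 subunits as fitted. Itga3 (ENSMUSG00000001507), the alpha 3 subunit that binds laminins, was at 31.5, 34.4 and 32.7 CPM in Mock, 15.8, 17.3 and 18.5 with AOA, and 21.7, 25 and 23.5 with AOA+Asp. It was at 37.8, 33.6 and 32.4 CPM with HT-DNA, 14.9, 17.8 and 16.5 with HT-DNA+AOA, and 22.4, 22 and 23.2 with HT-DNA+AOA+Asp. Aspartate libraries lay between the other groups without overlapping them. The log2 change with AOA was -0.94 ± 0.09 (adjusted p = 1.05e-07, edgeR), and AOA+Asp was below Mock by a log2 of -0.49 (adjusted p = 0.00151, edgeR). Itgb5, the beta 5 subunit that pairs with alpha V to bind vitronectin, was at 263, 262 and 258 CPM in Mock, 335, 344 and 337 with AOA, and 241, 288 and 262 with AOA+Asp. It was at 280, 273 and 304 CPM with HT-DNA, 256, 265 and 319 with HT-DNA+AOA, and 243, 244 and 233 with HT-DNA+AOA+Asp. It rose with AOA by a log2 of 0.38 (adjusted p = 0.000688, edgeR), while HT-DNA+AOA libraries overlapped HT-DNA, and the interaction was -0.41 (adjusted p = 0.0209, edgeR). After the GC and length correction AOA raised it with HT-DNA too (0.23, adjusted p = 4.34e-05, against -0.03 as fitted), and the interaction was -0.17 (adjusted p = 0.0334). As fitted, the interaction was not called without AOA replicate 2 (adjusted p = 0.053), HT-DNA replicate 3 (0.0622) or HT-DNA+AOA replicate 2 (0.0581). Low subunits add little. Itga10, which binds collagen, was at 1.57, 1.18 and 1.14 CPM with HT-DNA and 0.94, 0.565 and 0.596 with HT-DNA+AOA (log2 -0.87, adjusted p = 0.0242, edgeR), and ranged from 0.725 to 1.76 in the other groups. This call was lost without HT-DNA replicate 1 (adjusted p = 0.0997), HT-DNA+AOA replicate 2 (0.099) or HT-DNA+AOA replicate 3 (0.0685), and after the GC and length correction (log2 -0.68, adjusted p = 0.0649).

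Among the other matrix proteins, Spp1 (ENSMUSG00000029304) was at 1250, 1270 and 1450 CPM in Mock, 2080, 1980 and 2280 with AOA, and 1620, 1620 and 1490 with AOA+Asp. It was at 1510, 1470 and 1550 CPM with HT-DNA, 2030, 2310 and 2070 with HT-DNA+AOA, and 1440, 1500 and 1590 with HT-DNA+AOA+Asp. It was the member with the highest CPM in every library, and every library with AOA and no aspartate was above all others. The rise was 0.67 on the log2 scale without HT-DNA (adjusted p = 1.06e-06, edgeR) and 0.50 with it (adjusted p = 2.44e-05, edgeR). Tnxb (ENSMUSG00000033327), tenascin X, which organises collagen fibrils, fell from 155, 155 and 150 CPM in Mock to 86.3, 92.4 and 84.4 with AOA and was at 101, 106 and 113 with AOA+Asp. It was at 168, 159 and 162 CPM with HT-DNA, 87.8, 90.9 and 96.4 with HT-DNA+AOA, and 113, 109 and 112 with HT-DNA+AOA+Asp. The log2 change with AOA was -0.80 (adjusted p = 9.54e-09, edgeR), and with AOA+Asp it was still -0.52 against Mock (adjusted p = 2.41e-05). Hspg2 (perlecan, a heparan sulfate proteoglycan of basement membranes) was at 263, 273 and 253 CPM in Mock and 318, 315 and 288 with AOA, which did not overlap but were not called (log2 0.22, adjusted p = 0.0523, edgeR). They were called by DESeq2 (adjusted p = 0.0418), with no filter (0.0488), with at least 10 counts in every library (0.0497), with only the groups compared (0.00424), without AOA replicate 3 (0.0449) and after the GC and length correction (log2 0.43, adjusted p = 1.45e-05). It was at 229, 277 and 295 CPM with AOA+Asp, 304, 297 and 344 with HT-DNA, 267, 251 and 312 with HT-DNA+AOA, and 268, 260 and 253 with HT-DNA+AOA+Asp.

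Among the other receptors, Dag1 (ENSMUSG00000039952), dystroglycan, a laminin receptor, was at 259, 253 and 248 CPM in Mock, 128, 147 and 139 with AOA, and 198, 214 and 224 with AOA+Asp. It was at 193, 208 and 198 CPM with HT-DNA, 116, 108 and 119 with HT-DNA+AOA, and 215, 205 and 202 with HT-DNA+AOA+Asp. Libraries with AOA and no aspartate were below all others. The log2 change was -0.87 without HT-DNA (adjusted p = 9.32e-09, edgeR) and -0.81 with it (adjusted p = 1.39e-08, edgeR). Hmmr (ENSMUSG00000020330), a hyaluronan receptor that is also a spindle protein of dividing cells, was at 89.1, 87.3 and 94.8 CPM in Mock, 46.2, 44.3 and 48.7 with AOA, and 122, 104 and 99.1 with AOA+Asp. It was at 70, 84.2 and 76.1 CPM with HT-DNA, 52.2, 47.5 and 34.8 with HT-DNA+AOA, and 89.7, 96.5 and 102 with HT-DNA+AOA+Asp. It fell with AOA by a log2 of -0.96 ± 0.12 (adjusted p = 1.94e-06, edgeR), and AOA+Asp libraries were above Mock without a call (0.26, adjusted p = 0.184). Cd44, the main hyaluronan receptor, was at 299, 308 and 272 CPM in Mock, 460, 411 and 396 with AOA, and 298, 302 and 280 with AOA+Asp, a rise of 0.53 with AOA (adjusted p = 0.000175, edgeR). The log2 difference of AOA+Asp from Mock was 0.00 (95% interval -0.20 to 0.20). Cd36, a receptor for thrombospondin and fatty acids, was at 519, 517 and 575 CPM in Mock and 400, 404 and 494 with AOA (log2 -0.31, adjusted p = 0.00327, edgeR). It was at 560, 543 and 525 CPM with AOA+Asp, 442, 477 and 473 with HT-DNA, 434, 439 and 402 with HT-DNA+AOA, and 463, 495 and 509 with HT-DNA+AOA+Asp.

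Aspartate added to AOA moved 20 members against AOA alone, 7 higher and 13 lower, where 46.3% of all genes were called. The 13 were Fn1, Spp1, Itgb7, Itgb5, Cd47, Cd44, Sdc1, Sdc4, Col4a1, Col4a2, Lama5, Lamb3 and Lamc1, and the 7 were Col1a2, Itga3, Lamb2, Tnxb, Cd36, Dag1 and Hmmr. The members' median log2 fold change was -0.12, and that of all genes -0.01. The largest falls were -1.16 for Itgb7 and -1.15 for Lamb3, followed by Fn1, and the largest rises 1.22 for Hmmr, 0.64 for Col1a2 and 0.62 for Dag1. After the correction the split was 7 higher and 20 lower. Cd36 was then no longer called (0.03, adjusted p = 0.741) and Col6a1 was called as higher (0.17, adjusted p = 0.00482, edgeR). In all, 17 of the 20 calls held in all settings and after the correction. This comparison shares the AOA libraries with AOA against Mock, so each gene's opposite signs in the pair are not independent of each other.

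Against Mock, AOA+Asp left 5 members called, all lower, where 6.47% of all genes were called (members' median log2 fold change -0.07, all genes 0.01). They were Itga3 (-0.49), Tnxb (-0.52), Thbs2 (-0.42, adjusted p = 0.0133), Itga5 (-0.28, adjusted p = 0.0245) and Dag1 (-0.26, adjusted p = 0.0236, all edgeR). Itga3 and Tnxb held in every setting. Thbs2 was lost without Mock replicate 1 (adjusted p = 0.0526) or AOA+Asp replicate 2 (0.0667), Itga5 without any 1 Mock library (0.0558 to 0.111) or AOA+Asp replicate 1 (0.163), and Dag1 without any 1 Mock library (0.0505 to 0.103), AOA+Asp replicate 1 (0.147) or AOA+Asp replicate 2 (0.0542). Thbs2, a thrombospondin that restrains matrix assembly and vessels, was at 19.7, 19.6 and 19.8 CPM in Mock, 15.3, 13.7 and 14 with AOA, and 16.2, 13 and 14.9 with AOA+Asp, below Mock in all 6 libraries. No collagen was called by edgeR, with 4 of 9 at an unadjusted p under 0.05 and 2 by DESeq2, and no laminin was, with 0 of 6 at an unadjusted p under 0.05 and 0 by DESeq2. The count rose to 13 members when only these 2 groups were fitted, and to 8 with library totals (0 higher and 8 lower). After the correction it was 8 (2 higher and 6 lower). Calls over all genes rose too, from 923 as fitted to 2462, 1104 and 1653, in that order. The members' count dropped to 2 without Mock replicate 1, and to 3 without Mock replicate 2, AOA+Asp replicate 1 or AOA+Asp replicate 2.

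HT-DNA alone raised the syndecans Sdc1 and Sdc4, Cd44 and Itga5 and lowered Thbs2 and Dag1. Against Mock 18 members were called, 7 higher and 11 lower, where 48.2% of all genes were called (members' median -0.01, all genes -0.01). With library totals, where the median of all genes was -0.12, the split was 4 higher and 18 lower, and after the GC and length correction 10 and 10. Of the 18 calls, 9 held in every planned setting and 8 of them also after the correction. Dag1 changed by -0.34 (adjusted p = 0.000476, edgeR). By family, 3 of 9 collagens, 2 of 6 laminins, 5 of 11 integrins, 3 of 8 other matrix proteins and 5 of 10 other receptors were called. Along the members the rho of the change with GC content was 0.4 and with exon length -0.502.

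Sdc4 (ENSMUSG00000017009) and Sdc1 (ENSMUSG00000020592) encode syndecans, transmembrane proteoglycans that act beside integrins in adhesion. Sdc4 was at 140, 148 and 147 CPM in Mock and 237, 232 and 245 with HT-DNA (log2 0.72 ± 0.09, SE; adjusted p = 5.66e-06, edgeR). Sdc1 was at 213, 220 and 221 CPM in Mock and 354, 339 and 346 with HT-DNA (log2 0.67 ± 0.09; adjusted p = 2.1e-05, edgeR). HT-DNA libraries of both genes were above all those of Mock, and the changes were 0.69 and 0.47 after the correction. Sdc2, another syndecan, carries no pathway in the table and is no member. Like Lamb1, it was added beside the members. Its mean went the other way, from 48 ± 1.89 CPM in Mock to 39.8 ± 3.67 with HT-DNA (SD, n = 3), with no test or corrected value given here. Cd44 was at 386, 470 and 376 CPM with HT-DNA, above Mock, a log2 rise of 0.49 (adjusted p = 0.000505, edgeR) and of 0.87 after the correction. It was at 557, 476 and 435 CPM with HT-DNA+AOA (log2 0.25 against HT-DNA, adjusted p = 0.0352, lost without HT-DNA replicate 1 at 0.137 or 3 at 0.163 and without HT-DNA+AOA replicate 1 at 0.172 or 2 at 0.0554, and 0.13 with adjusted p = 0.0566 after the correction) and 353, 372 and 376 with HT-DNA+AOA+Asp. Itga5, the fibronectin receptor's alpha subunit, was at 140, 148 and 140 CPM in Mock and 187, 182 and 188 with HT-DNA (log2 0.38, adjusted p = 0.000428, edgeR).

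Thbs2 (ENSMUSG00000023885) was at 12.2, 12.5 and 11.8 CPM with HT-DNA, below all other libraries of the series, a log2 change of -0.69 ± 0.10 from Mock (adjusted p = 3.72e-05, edgeR) and of -0.39 after the correction (adjusted p = 0.00145). Itgav and Itga6, subunits for vitronectin and laminin, gave a different picture. Itgav (ENSMUSG00000027087), whose longest transcript has a GC content of 43.5%, was at 227, 222 and 209 CPM in Mock and 130, 176 and 139 with HT-DNA, and its fall of -0.57 (adjusted p = 0.000401, edgeR) was -0.09 after the correction (adjusted p = 0.183). It was at 213, 196 and 200 CPM with AOA, 228, 210 and 217 with AOA+Asp, 211, 164 and 152 with HT-DNA+AOA, and 192, 196 and 202 with HT-DNA+AOA+Asp. Itga6 was at 192, 183 and 169 CPM in Mock, 124, 161 and 126 with HT-DNA, 243, 211 and 196 with AOA, 195, 181 and 183 with AOA+Asp, 228, 183 and 145 with HT-DNA+AOA, and 180, 176 and 182 with HT-DNA+AOA+Asp. Its fall with HT-DNA (-0.40, adjusted p = 0.0141, edgeR) was -0.24 after the correction (adjusted p = 0.0532), and it was not called without Mock replicate 1 (0.0572), HT-DNA replicate 1 (0.0717) or HT-DNA replicate 3 (0.0676). In both genes HT-DNA replicate 2 stood above replicates 1 and 3, and within HT-DNA+AOA replicate 1 was the highest and replicate 3 the lowest. Sdc1, Col4a2 and Itgb5 were highest in HT-DNA+AOA replicate 3. The part of these library differences in the HT-DNA results was not tested beyond the correction.

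**Figure D4:**
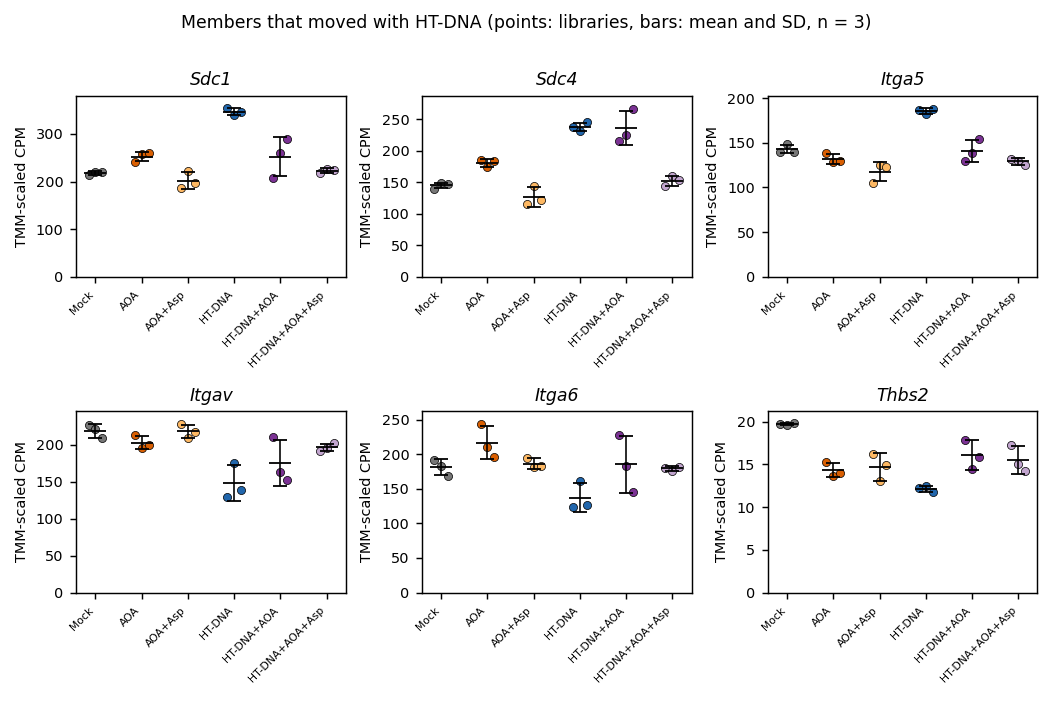
CPM of 6 members in each library (points) of the 6 groups, with the mean and SD (n = 3) as bars and every vertical axis starting at 0. Sdc1 is at 339 to 354 CPM in the HT-DNA libraries against 213 to 221 in Mock, Thbs2 is lowest with HT-DNA, and the HT-DNA and HT-DNA+AOA libraries of Itgav are spread wider than those of other groups.

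**Figure D5:**
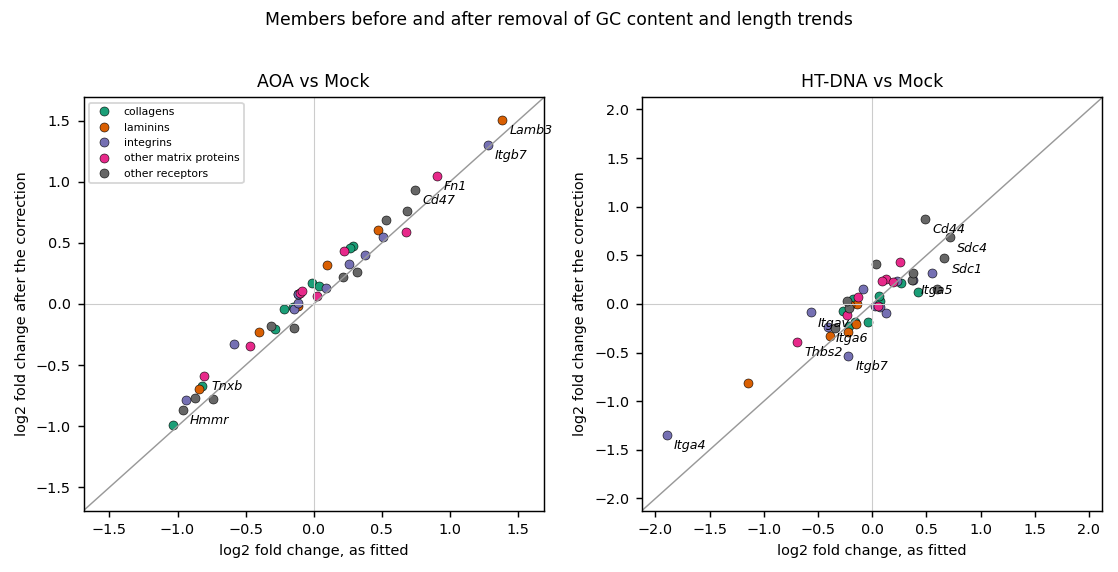
Log2 fold change of each member tested before (horizontal) and after (vertical) removal of each library's trends with GC content and length, for AOA against Mock and HT-DNA against Mock, with the diagonal marking no difference and colours marking families. Fn1 lies near the diagonal for AOA (0.90 and 1.05), while Itgav moves from -0.57 to -0.09 for HT-DNA.

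With HT-DNA present, AOA gave 22 called members against HT-DNA alone, 10 higher and 12 lower, where 45.4% of all genes were called (members' median -0.05, all genes 0.02). The split was 8 and 15 with library totals and 14 and 10 after the correction. The AOA comparisons with and without HT-DNA have no library in common. Of the 21 members called without HT-DNA, 15 (71.4%) were called in the same direction with it, which is 68.2% of the 22, and over all genes the shares were 58% and 58.3%. They were Fn1, Itgb7, Lamb3, Lamc1, Spp1, Cd44 and Cd47 (higher in both) and Col1a2, Col6a1, Col6a3, Lamb2, Itga3, Tnxb, Dag1 and Hmmr (lower in both). After the GC and length correction Col6a3 was not called without HT-DNA, nor Lamb2 and Cd44 with it. Thbs2 was called in opposite directions. Of the 22 calls, 17 held in every planned setting and 14 of these also after the correction.

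The interaction tested directly whether the AOA effect differed with HT-DNA. It was called for 5 members, 1 higher and 4 lower, where 15.5% of all genes were called (members' median -0.07, all genes 0.01). The split was 3 and 3 with library totals and 4 and 8 after the correction. Thbs2 had the largest value (0.87 ± 0.14, SE; adjusted p = 0.000861, edgeR). AOA lowered it without HT-DNA (-0.47) and raised it with HT-DNA (0.40), to 17.9, 14.5 and 15.9 CPM with HT-DNA+AOA, and it was at 17.3, 15 and 14.2 CPM with HT-DNA+AOA+Asp. Sdc1 had an interaction of -0.67 ± 0.13 (adjusted p = 0.00278, edgeR). It was at 241, 257 and 260 CPM with AOA, 187, 222 and 196 with AOA+Asp, 208, 260 and 290 with HT-DNA+AOA, and 217, 226 and 225 with HT-DNA+AOA+Asp, so AOA libraries lay above Mock (0.21, not called as fitted, and 0.22 with adjusted p = 0.00149 after the correction) and HT-DNA+AOA libraries below HT-DNA (-0.45, adjusted p = 0.000394). The calls of Thbs2 and Sdc1 held in all settings, those of Itgb5, Col4a2 and Hspg2 (-0.41, adjusted p = 0.0388) did not. That of Hspg2 was lost with library totals (adjusted p = 0.0843), with only the groups compared (0.0584), and without any of the 3 Mock libraries, AOA replicate 1 or 2, HT-DNA replicate 1 or 3, or HT-DNA+AOA replicate 1 or 2 (0.0505 to 0.109). No laminin was called by edgeR, with 2 of 6 at an unadjusted p under 0.05 and 1 by DESeq2. Sdc4 was at 185, 174 and 183 CPM with AOA, 115, 144 and 121 with AOA+Asp, 215, 225 and 266 with HT-DNA+AOA, and 144, 160 and 153 with HT-DNA+AOA+Asp, with an interaction of -0.34 (adjusted p = 0.0624, edgeR), which was -0.35 (adjusted p = 0.0242) after the correction.

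Aspartate added to HT-DNA+AOA moved 19 members, 10 higher and 9 lower, where 47.7% of all genes were called (members' median -0.04, all genes -0.01). The split was 11 and 7 with library totals and 7 and 20 after the correction, and 11 of the 19 calls held in every setting and after the correction. Hmmr (1.10), Dag1 (0.86) and Col1a2 (0.76) rose most among the well expressed members, and Lamb3 (-1.39), Itgb7 (-1.22) and Fn1 (-0.89) fell most. Sv2a, a synaptic vesicle protein that the pathway lists as a receptor, was at 0.888, 0.821 and 0.716 CPM with HT-DNA+AOA and 1.26, 2.74 and 1.37 with HT-DNA+AOA+Asp (log2 1.14, adjusted p = 0.00886, edgeR), a call lost without HT-DNA+AOA+Asp replicate 2 (0.70, adjusted p = 0.0947). It was at 0.55 to 1.66 CPM in the other groups.

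HT-DNA+AOA+Asp against HT-DNA gave 19 called members, 7 higher and 12 lower, where 46.6% of all genes were called (members' median -0.07, all genes 0.00). The split was 9 and 12 with library totals and 6 and 11 after the correction, and 7 of the 19 calls held in every setting and after the correction. As fitted 8 of 11 integrins and 3 of 10 other receptors were called, and after the correction 4 of 11 and 6 of 10. Itga3 (-0.62, adjusted p = 4.16e-05), Itga5 (-0.53, adjusted p = 3.79e-05), Sdc1 (-0.64, adjusted p = 4.77e-05) and Sdc4 (-0.64, adjusted p = 2.52e-05) were lower with aspartate and AOA than with HT-DNA alone, and Itgb7 was higher (0.36, adjusted p = 0.00153, all edgeR). Itga5 was at 132, 130 and 125 CPM in HT-DNA+AOA+Asp and 187, 182 and 188 in HT-DNA, and its other groups held 138, 128 and 130 with AOA, 105, 125 and 123 with AOA+Asp, and 130, 139 and 154 with HT-DNA+AOA. Itgav rose by 0.41 (adjusted p = 0.00504) as fitted and was -0.06 (adjusted p = 0.369) after the correction. Itga2b, a platelet integrin, was at 1.31, 1.23 and 1.49 CPM with HT-DNA and 0.58, 0.866 and 0.757 with HT-DNA+AOA+Asp (log2 -0.87, adjusted p = 0.025, edgeR), a call lost without HT-DNA replicate 1 (adjusted p = 0.0516) or 3 (0.0833), HT-DNA+AOA+Asp replicate 1 (0.0973) or 3 (0.0562), and after the correction (0.183). It was between 0.513 and 1.57 CPM in the other groups. These 2 comparisons and HT-DNA+AOA against HT-DNA share libraries, so their values stand side by side and are not independent.

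Other lists of matrix and adhesion genes had called shares that should be read against 45.7% of all genes with AOA and 48.2% with HT-DNA. The counts and levels of these lists, here and in the next paragraph, are as fitted, without the GC and length correction. Of 20 tested genes for collagen synthesis and processing, 7 were higher and 4 lower with AOA, and 9 were higher and 0 lower with HT-DNA. P4ha1, a prolyl hydroxylase subunit, rose from 102 ± 2.95 to 156 ± 12.8 CPM with AOA, and Serpinh1, the collagen chaperone HSP47, from 1070 ± 6.65 in Mock to 1520 ± 85.2 with HT-DNA (SD, n = 3). Of 14 tested matrix proteases and inhibitors, 4 were higher and 6 lower with AOA, and 5 and 6 with HT-DNA. Plat, tissue plasminogen activator, rose from 1.65 ± 0.219 CPM in Mock to 12.7 ± 1.06 with HT-DNA and 42.9 ± 1.6 with HT-DNA+AOA (SD, n = 3). Mmp14, a membrane-bound collagenase, fell from 117 ± 3.28 CPM in Mock to 74.7 ± 5 with AOA.

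Against the same 45.7% and 48.2% of all genes, of 10 tested collagens outside the pathway 7 were higher and 2 lower with AOA, among them Col5a1, a regulator of fibril diameter, at 237 ± 12.2 CPM in Mock and 346 ± 16.2 with AOA, and Col11a2, lower, at 11.2 ± 0.409 and 6.87 ± 0.373 (SD, n = 3). With HT-DNA the counts were 5 higher and 1 lower. Of 14 proteoglycan and elastic fibre genes, 5 were higher and 2 lower with AOA, and 5 and 3 with HT-DNA. Fbln5, fibulin 5 of elastic fibres, fell from 7.61 ± 0.488 CPM in Mock to 4.55 ± 0.265 with HT-DNA. Of 28 tested genes for the cytoplasmic side of integrin adhesions, 7 were higher and 8 lower with AOA, and 9 and 7 with HT-DNA. Tns2, a tensin, fell from 92.9 ± 0.649 to 49.2 ± 3.36 CPM with AOA. Of 22 genes for transcription factors and signals that act on matrix genes, 4 were higher and 9 lower with AOA, and 7 and 9 with HT-DNA. Srf, serum response factor, was at 47.6 ± 2 CPM in Mock, 98.2 ± 8.13 with HT-DNA and 59.1 ± 11.3 with HT-DNA+AOA.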

How the data were processed

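RNA from 18 cultures (6 groups of 3, independent per the study's methods) was measured by RNA-seq. The authors deposited expected counts (estimated read counts per gene, not normalized) for 57180 genes, of which 11.6% were not whole, and they were rounded before analysis, although whole counts had been assumed in the design. The aligner, counting program, genome build and test are not given in the sources used here. The deposited table also holds group means, which matched the mean of the libraries and were not used.

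Rounded counts went into edgeR 4.0.16 under R 4.3.3 (robust quasi-likelihood fit of all 18 libraries, TMM, filterByExpr with minimum count 10 and minimum total 15), over 7 comparisons and the interaction, and called at a Benjamini-Hochberg adjusted p under 0.05 over 14263 genes. The precision comes from the fitted spread between 3 cultures, and depth was 17901546 to 24057284 counts. On simulated counts for AOA against Mock, 80.2% of genes changed by a log2 of 1 and 93.9% of those changed by 2 were called, and 5.06% of calls were unchanged genes. The simulation changed only a small part of the genes, evenly up and down, and held no trends with GC content or length. In the data 45.7% of genes were called, so these rates need not hold there. Ratios of chains were compared by two-sided exact permutation tests.

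Values in every library are given for the 3 most abundant members of each family and, in each comparison, the 3 largest rises and falls among called members with at least 1 CPM. Col1a1, Itga5 and Cd47 were added beside them. Some genes that the rules allow are not reported here. Of the other lists, genes were named from the 3 with the largest changes in a list and comparison. The members and lists were chosen with earlier results of these data known. Alternatives were RLE, library totals, no filter, at least 10 counts in every library, DESeq2 1.42.0, the replicate number as a block, only the groups compared, and each library left out. A correction for GC content and length (loess trends of each library over GENCODE vM21 longest transcripts, span 0.3) was added after seeing the data. Exon lengths for levels per kilobase, the union of all exons of a gene, came from the same release, which need not match theirs.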

Additional observations from a re-analysis of the deposited data

Results flagged for a closer look

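The effect of AOA differed with and without HT-DNA, by edgeR's interaction test, in 5 of 44 members. This is 11.4% of members, against 15.5% of all genes. The interaction, as a log2 difference, was 0.87 for Thbs2, -0.67 for Sdc1, -0.41 for Itgb5, -0.41 for Hspg2 and -0.40 for Col4a2. Thbs2 and Sdc1 held in every setting tried, and the calls of the other 3 were lost without 1 or more single libraries.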

How the results depend on the processing

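For the 32 members named with tests, direction and call were unchanged in 3471 of the single-gene values recomputed, weaker in 155, stronger in 111 and reversed in 17. All 17 reversals came with the GC content and length correction. They were log2 values of 0.17 for Col1a1 in AOA against Mock, -0.19 for Itgav in AOA+Asp against AOA, -0.10 for Itgb5 in HT-DNA against Mock, 0.23 for Col4a2, 0.23 for Itgb5 and 0.0157 for Lamb2 and 0.0424 for Col1a1 in HT-DNA+AOA against HT-DNA, -0.14 for Itgav and -0.12 for Col1a1 in HT-DNA+AOA+Asp against HT-DNA+AOA, and 0.11 for Col4a1, 6e-04 for Col4a2, -0.0621 for Itgav, 0.0658 for Itgb5, 0.0166 for Col6a1, -0.34 for Cd47, -0.15 for Spp1 and -0.21 for Cd36 in HT-DNA+AOA+Asp against HT-DNA. That correction removes trends with composition and length by construction, and whether these trends are technical was not tested. For AOA+Asp against Mock the 5 member calls became 8 with library totals, DESeq2 or the correction, and 13 with only the libraries compared. Over all genes 923 calls became 1104, 1313, 1653 and 2462, in the same order. With a library left out the members' count was 2 to 5 (2 without Mock replicate 1). The 5 interaction calls became 12 with DESeq2 and 12 after the correction, where calls over all genes went from 2209 to 2768 and 2647. With a library left out the members' interaction calls were 2 (without HT-DNA+AOA replicate 2) to 13 (without HT-DNA+AOA replicate 3). For HT-DNA+AOA+Asp against HT-DNA leaving out a library gave 12 (without HT-DNA replicate 3) to 20. The causes were not tested. With the replicate number as a replicate block the counts were 22 for AOA against Mock, 21 for HT-DNA+AOA+Asp against HT-DNA and 6 for the interaction. Same-numbered libraries correlated by -0.104 to 0.134 in their deviations. With 3 libraries a group, this cannot show whether they share more than a number. Low counts limit Lamb3, Itga2b, Itga10, Itga4 and Sv2a.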

Other observations

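Itga7, a laminin-binding integrin subunit with no pathway in the table, was looked up after the values of the members were seen. It changed by a log2 of 0.49 with AOA, 0.56 with HT-DNA and -0.74 from AOA to AOA+Asp. The interaction was -0.64 (adjusted p = 0.00224, edgeR), and all these values are as fitted, without the GC and length correction.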
